A study of Homo sapiens with 12 samples.

Results

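ALKBH4 was induced in a HEK293 line, and 3 arrays of induced cells were set against 3 arrays of uninduced cells of the same line, which makes 6 of the 12 arrays of the series. The members were chosen by sample title alone, and the other 6 arrays carry the same design for ALKBH7. The line was made from Flp-In T-REx-293, a derivative of human embryonic kidney cells. It carries cDNA for C-terminally FLAG-tagged ALKBH4 at a single genomic site behind a tetracycline-inducible promoter. Whether all arrays came from 1 clone is not stated, and the study also calls the uninduced cells parental. The induced cells received 2 µg/ml doxycycline and were harvested 48 h later, whereas the uninduced cells received no doxycycline.

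The drug and the transgene were present together in every induced sample, and their effects cannot be told apart in this comparison. Whether the triplicates were grown as separate cultures is not stated, so every p-value below measures only the spread between these samples, which may be technical. In such bulk RNA, fewer cells of a type and less RNA per cell cannot be told apart. The purpose was to ask whether a higher level of ALKBH4 changes gene expression.

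ALKBH4 is one of the AlkB oxygenases, which use iron and 2-oxoglutarate and mostly remove methyl groups from nucleic acids or proteins, and it is known to demethylate a lysine of actin. Several of the genes described here belong to a few stress and metabolic programmes. ATF4 drives the integrated stress response and switches on amino acid synthesis, amino acid import and growth inhibitors when translation initiation is slowed. HSF1 switches on chaperones when proteins misfold, and SREBP proteins switch on sterol and fatty acid synthesis when membranes lack cholesterol.

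Each probe of the Illumina HumanWG-6 v3 BeadChips yields a fluorescence intensity in arbitrary units and a detection p-value against negative control beads. The 6 arrays were quantile normalized together and put on the log2 scale, and a probe was kept when its detection p was below 0.01 in at least 3 of them. This left 14386 of 48803 probes, which name 9588 genes. A log2 fold change is the induced mean minus the uninduced mean, so that a positive value means higher in induced cells, and its error is the SE of limma, a linear model that shares the spread of 3 against 3 arrays across probes. Of 12 markers of HEK293 and epithelial lines, 9, among them KRT18, VIM and CDH2, were detected on all 6 arrays. PAX2 and NEFM of that list were detected on none, as were 5 of 7 blood markers (CD14 and HBA1 were detected), 6 of 8 fibroblast markers and 6 of 7 hepatocyte markers.

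The uninduced arrays differed from each other more than from the induced ones. Pairwise correlations of log2 intensity lay between 0.983 and 0.991 within the induced group and between 0.968 and 0.983 within the uninduced group, whereas pairs across the groups lay between 0.971 and 0.994. Each uninduced array correlated on average better with the induced arrays than with the other uninduced ones (0.976 against 0.974, 0.980 against 0.975 and 0.991 against 0.982 for replicates 1, 2 and 3). The probe-wise SD had a median of 0.147 in induced and 0.196 in uninduced cells, and it was larger in uninduced cells at 64.6% of probes. Over all genes tested, the uninduced array farthest from the induced mean was replicate 1 in 50%, replicate 2 in 36.8% and replicate 3 in 13.2%. The share of probes detected was 27.9 to 29.3% in induced and 28.7 to 30.7% in uninduced arrays (exact two-sided permutation test p = 0.3), and the median intensity averaged 52.1 in induced and 53.7 in uninduced arrays (exact permutation p = 0.8). Mean intensity averaged 281 in induced and 244 in uninduced arrays (exact permutation p = 0.5). The 95th percentile of intensity over the median averaged 20.5 in induced and 15.3 in uninduced arrays (exact permutation p = 0.5). It was highest in induced replicate 3, at 29.4, and lowest in uninduced replicate 1, at 12.4. With 3 against 3 arrays this test cannot give a p below 0.1.

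By limma, 0 of the 14386 probes (0%) passed an adjusted p of 0.05, and the smallest adjusted p was 0.924. An unadjusted p under 0.05 was given by 590 probes (4.1%), 260 of them with a positive and 330 with a negative log2 fold change. Rank product, which ranks the fold changes of each of 9 array pairs, called 8 probes (0.0556%) at a q-value under 5 percent and the fold change limit of the study. HSPA1B rose by this test, and DDIT4, SLC3A2, TSC22D3, STC2, STMND1, ISG15 and CTH fell, TSC22D3 and CTH at 1 of their 3 tested probes each. At the brightest probe of each gene, the 3 induced arrays lay above all 3 uninduced arrays in 446 of 9588 genes (4.65%) and below them in 483 (5.04%). At the same brightest probes, 48.9% of genes had a log2 fold change below 0. Over probes, the groups did not overlap at 1437 (9.99%).

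**Figure D1:**
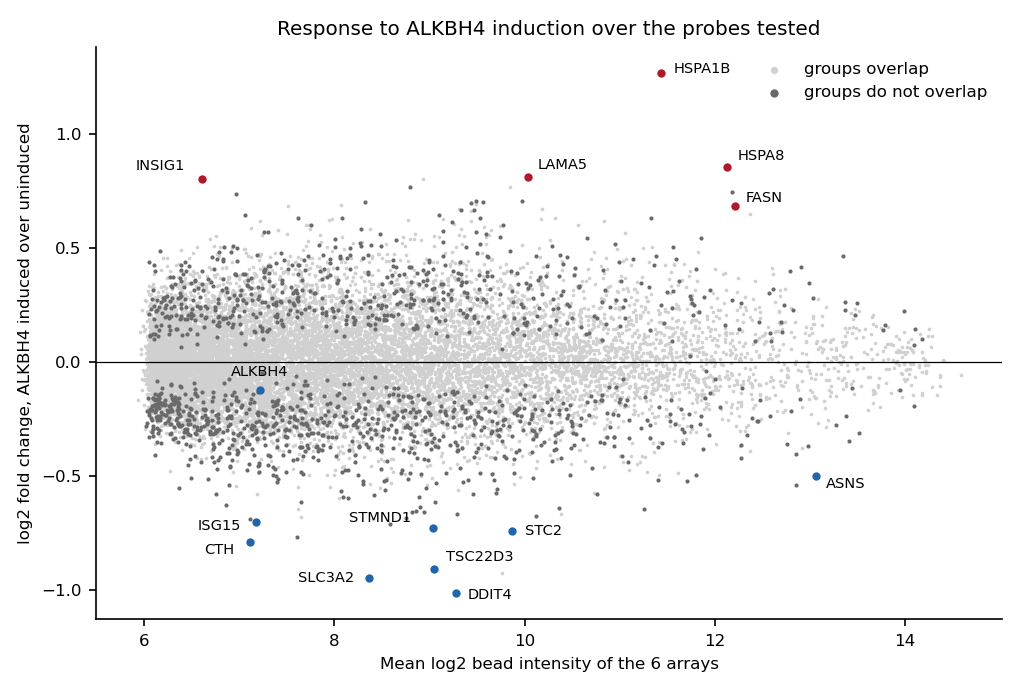
Log2 fold change of ALKBH4 induced over uninduced cells (vertical axis) against the mean log2 bead intensity of the 6 arrays (horizontal axis) for the 14386 probes tested. Dark points mark the 1437 probes whose groups did not overlap, and coloured points are named genes. HSPA1B, at 1.27, and DDIT4, at -1.02, lie farthest from 0 among the named genes, and the probe for ALKBH4 lies at -0.13.

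The transgene itself could not be read from the array. The study reports that ALKBH4 rose after doxycycline, by quantitative PCR of its mRNA and by Western blot for the FLAG tag. According to the study the ALKBH4 probe lies in untranslated sequence, so it is no check of the induced cDNA. It read 7.19, 7.43 and 6.86 in induced cells, against 7.44, 7.38 and 7.04 in uninduced cells (log2 intensity). These values overlap, with a log2 fold change of -0.13 ± 0.18 (SE, n = 3 per group; limma adjusted p = 0.945). Among the 9 tested members of the AlkB family, 0 passed limma and 1, ALKBH3, had all induced arrays below all uninduced ones (11.1%, against 5.04% of all genes). ALKBH3, which repairs alkylated single-stranded DNA and RNA, read 8.94, 9.24 and 8.61 in induced cells, against 9.70, 9.28 and 9.27 in uninduced cells. The nearest arrays of the groups lay 0.03 apart. The other 8 members gave log2 fold changes between -0.13 and 0.19, with ALKBH5, an RNA demethylase, at the upper end.

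DDIT4, also called REDD1, encodes an inhibitor of mTORC1, the kinase complex that promotes growth, and is a target of ATF4. Its probe read 8.77, 8.79 and 8.74 in induced cells, against 10.16, 9.70 and 9.49 in uninduced cells. The induced arrays lay within 0.04 of each other and 0.70 below the lowest uninduced array, the widest such gap of any gene tested. The log2 fold change was -1.02 ± 0.18 (limma adjusted p = 0.924), a 2.02-fold lower intensity in induced cells. Rank product called DDIT4 in all 17 settings in which it was run, including each of the 6 that left out an array. Without uninduced replicate 1, DDIT4 was the single call, and of the 6 fits with an array left out TSC22D3 was called in 4, STC2 in 2, and ISG15, STMND1 and CTH in 1 each.

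SLC3A2 encodes CD98hc, the heavy chain of the exchangers that import large neutral amino acids and cystine. It read 8.20, 7.49 and 7.97 in induced cells, against 9.10, 9.02 and 8.39 in uninduced cells. The groups did not overlap, but uninduced replicate 3 lay 0.18 above the highest induced array, less than the range within either group. The log2 fold change was -0.95 ± 0.23. Rank product no longer called SLC3A2 without uninduced replicate 1, where its log2 fold change was -0.82, or without uninduced replicate 2.

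STC2, a secreted glycoprotein that ATF4 induces, read 9.49, 9.60 and 9.40 in induced cells, against 10.59, 10.34 and 9.79 in uninduced cells, and its log2 fold change was -0.74 ± 0.19. CTH, which makes cysteine from cystathionine, fell by rank product at a dim probe that read 6.81, 6.48 and 6.86 in induced cells, against 8.15, 7.48 and 6.90 in uninduced cells. Uninduced replicate 3 was thus within 0.04 of the highest induced array, and replicate 1 stood highest. At its brightest probe the groups of CTH overlapped, with a log2 fold change of -0.48 ± 0.26. Without uninduced replicate 1 that value was -0.11 at the brightest probe and -0.48 at the dim one.

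**Figure D2:**
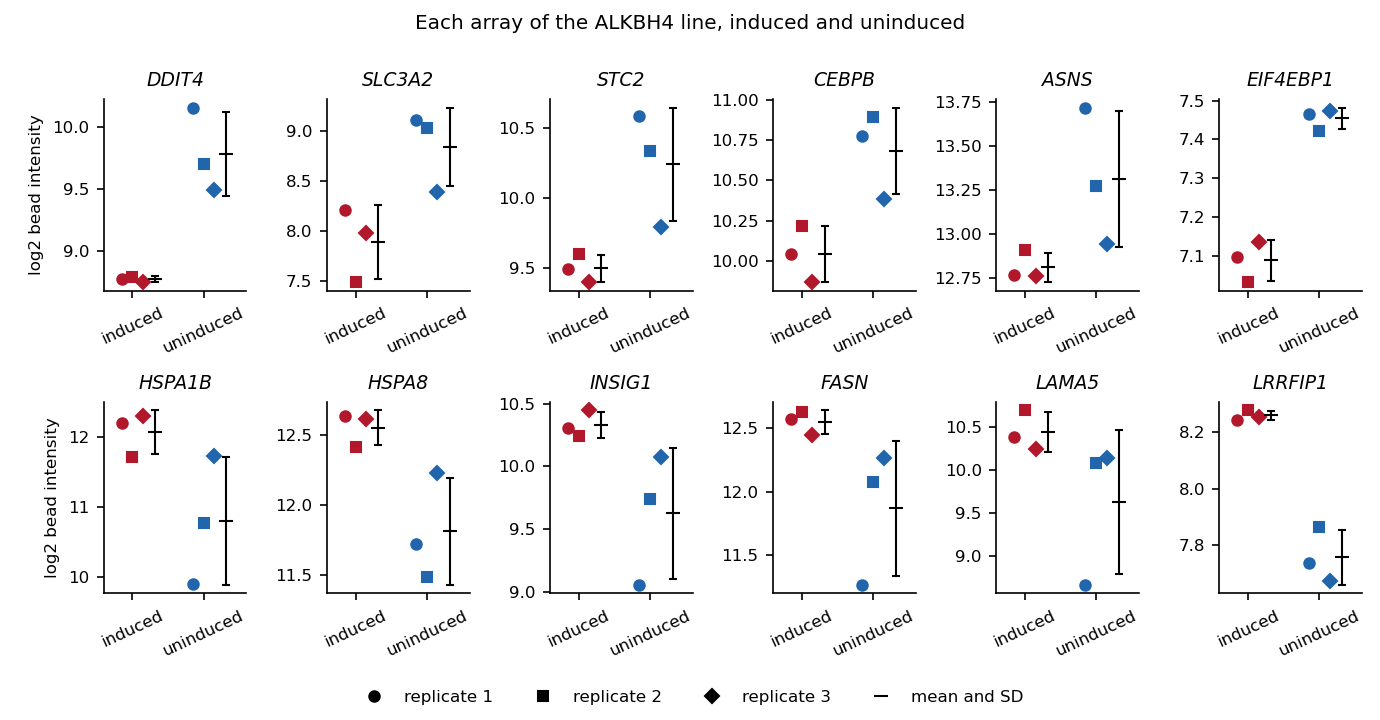
Log2 bead intensity of 12 genes in each array, with induced cells (red) left of uninduced cells (blue), 1 symbol per replicate, and the mean with its SD (n = 3) in black. Vertical axes start at different values. Uninduced replicate 3 is the uninduced array nearest to the induced ones in DDIT4, SLC3A2, STC2, CEBPB, ASNS, HSPA1B, HSPA8, INSIG1, FASN and LAMA5, while in EIF4EBP1 and LRRFIP1 each group lies close together.

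The ATF4 targets were described as a list of 54 genes, of which 45 were tested. Their log2 fold changes had a median of -0.23 against 0.01 over all genes tested, and 40 of 45 lay below 0, against 48.9% of all genes. The 3 induced arrays lay below all uninduced arrays in 9 of 45 (20%, against 5.04% of all genes) and above them in 0. None of the 45 passed limma. The median turned to 0.08 when arrays were scaled to a common median, a scaling that moved the median of all probes to 0.30. The list overlaps the genes that the study tabled on these same arrays, so its direction is not independent of that choice.

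Transcription factors and feedback genes of the response had a median of -0.43 over 8 tested genes, 7 of them below 0, and -0.24 without uninduced replicate 1. CEBPB, a dimerization partner of ATF4, read 10.04, 10.22 and 9.87 in induced cells, against 10.78, 10.89 and 10.38 in uninduced cells (log2 fold change -0.64 ± 0.17). DDIT3, the factor CHOP, gave -0.66 ± 0.20 and ATF3 gave -0.58 ± 0.16, both with groups that did not overlap. TRIB3, a pseudokinase that feeds back on ATF4, read 8.62, 8.68 and 8.69 in induced cells, against 9.64, 9.21 and 8.64 in uninduced cells. Its uninduced replicate 3 lay among the induced arrays. ATF4 mRNA itself, whose product is regulated mainly at translation, gave 0.05 ± 0.19.

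Growth-control targets had a median of -0.37 over 7 tested genes, all 7 below 0. Beside DDIT4 and STC2 these include SESN2, a leucine sensor that inhibits mTORC1, at -0.42 ± 0.16. EIF4EBP1, the translation repressor 4E-BP1, read 7.10, 7.03 and 7.14 in induced cells, against 7.47, 7.42 and 7.47 in uninduced cells (log2 fold change -0.37 ± 0.13). In EIF4EBP1 the gap of 0.29 between the groups exceeded the range within either of them, and its value stayed between -0.38 and -0.34 when any single array was left out. With arrays scaled to a common median, which moved the median of all probes to 0.30, EIF4EBP1 gave -0.03. GDF15, a stress hormone, gave -0.06 ± 0.15.

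Targets of amino acid synthesis had a median of -0.34, with 9 of 10 tested genes below 0, and the median was -0.11 without uninduced replicate 1. ASNS, asparagine synthetase, read 12.77, 12.91 and 12.76 at its brightest probe in induced cells, against 13.72, 13.27 and 12.95 in uninduced cells. The log2 fold change was -0.50 ± 0.19 there and -0.60 ± 0.17 at the second probe, and groups did not overlap at either. PSPH and PSAT1 of the serine pathway gave -0.55 ± 0.28 and -0.44 ± 0.25 with overlapping groups. In PSAT1, uninduced replicate 3 (10.19) was below all 3 induced arrays (10.49, 10.57 and 10.20), whereas uninduced replicates 1 and 2 stood at 11.17 and 11.21. Transporters had a median of -0.21 over 7 tested genes, and -0.13 without uninduced replicate 2. SLC3A2 and the cationic transporter SLC7A1 (-0.24 ± 0.14) had all induced arrays below (28.6%, against 5.04% of all genes). Genes of tRNA charging and export had a median of -0.08 over 13 tested genes. None had groups apart, where 4.65% of all genes had induced arrays all above and 5.04% all below. Their median turned to 0.10 without uninduced replicate 1 and lay between -0.23 and -0.05 without any other single array.

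Promoters of ATF4 targets often carry the composite element to which ATF4 binds with a CEBP partner. The letters TGATGNAA were searched on both strands in RefSeq promoter windows of GRCh38.p14, from 250 bases before to 50 after each gene's start. They occurred in 17 of the 42 ATF4 targets that had a window (40.5%) and in 1217 of 27305 genes (4.46%). Tested targets with the letters had a median log2 fold change of -0.22 (14 genes, 13 below 0), and those without them had -0.25 (24 genes, 20 below 0), a difference that was not tested. A match is a description of sequence, not a bound site. DDIT4, STC2 and CEBPB had no match in their windows. The windows of 3 targets with matches are shown, in lower case with the matched letters in capitals.
SLC3A2: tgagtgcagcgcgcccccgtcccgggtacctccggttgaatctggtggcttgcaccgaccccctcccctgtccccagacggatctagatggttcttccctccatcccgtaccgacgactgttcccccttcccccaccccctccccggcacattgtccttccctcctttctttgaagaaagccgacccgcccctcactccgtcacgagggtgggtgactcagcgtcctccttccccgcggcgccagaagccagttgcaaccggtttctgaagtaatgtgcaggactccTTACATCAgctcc
ASNS: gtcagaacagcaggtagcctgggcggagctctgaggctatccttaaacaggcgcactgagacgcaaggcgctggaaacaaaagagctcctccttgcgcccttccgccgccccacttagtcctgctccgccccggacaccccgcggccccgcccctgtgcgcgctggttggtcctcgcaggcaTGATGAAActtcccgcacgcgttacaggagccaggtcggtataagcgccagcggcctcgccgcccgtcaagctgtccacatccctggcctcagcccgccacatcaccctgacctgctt
ATF3: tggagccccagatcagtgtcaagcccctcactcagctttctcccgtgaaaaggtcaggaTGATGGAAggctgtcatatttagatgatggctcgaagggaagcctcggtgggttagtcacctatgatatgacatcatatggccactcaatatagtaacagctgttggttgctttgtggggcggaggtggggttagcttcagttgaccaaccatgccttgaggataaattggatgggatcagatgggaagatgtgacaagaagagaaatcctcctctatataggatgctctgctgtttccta
The SLC3A2 window is chr11:62881449-62881748 on the plus strand, 1 of 3 windows of that gene, and its match is on the opposite strand, 38 bases into the transcript. That of ASNS is chr7:97872359-97872658 on the minus strand, with the match starting 68 bases before the transcript. ATF3 has its window at chr1:212565157-212565456 on the plus strand, with the match 191 bases upstream.

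HSPA1B, an inducible HSP70 chaperone, gave the largest log2 fold change of all probes that name a gene. It read 12.20, 11.72 and 12.30 in induced cells, against 9.91, 10.78 and 11.72 in uninduced cells. The lowest induced and the highest uninduced array were level, and the uninduced arrays spread widely, so the groups were not apart. Its log2 fold change was 1.27 ± 0.36 (2.41-fold), and it was 0.81 without uninduced replicate 1 and 1.72 without uninduced replicate 3. Rank product no longer called it without uninduced replicate 1 or without any single induced array. HSPA1A is a nearly identical copy, so the probe may read both genes.

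HSPA8, the constitutive HSP70 of the cytosol, read 12.64, 12.41 and 12.61 at its brightest probe in induced cells, against 11.72, 11.48 and 12.23 in uninduced cells. At the second probe it read 12.58, 12.62 and 12.48 in induced cells, against 11.36, 11.44 and 12.30 in uninduced cells. Groups did not overlap at either probe, with log2 fold changes of 0.74 ± 0.19 and 0.86 ± 0.22, and at both uninduced replicate 3 was the nearest to the induced arrays. DNAJB1, the HSP40 cochaperone, read 9.09, 8.93 and 9.02 in induced cells, against 8.61, 8.51 and 8.68 in uninduced cells. This gap of 0.25 exceeded the range within either group, and the log2 fold change was 0.42 ± 0.13.

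Of 21 heat shock and chaperone genes 16 were tested, and 12 of them lay above 0, with a median of 0.23. The list holds HSPA1B and HSPA8, which the study tabled on these same arrays, so its direction is not independent of that choice. The induced arrays lay above all uninduced arrays in 3 of 16 (18.8%, against 4.65% of all genes), namely HSPA8, DNAJB1 and HSPB1 (0.39), a small heat shock protein. They lay below in 1 of 16 (6.25%, against 5.04% of all genes), which was HSF1 (-0.29). BAG3, which hands clients of HSP70 to autophagy, gave 0.45 ± 0.23 with overlapping groups and had uninduced replicate 1 as its lowest array (8.85, against 9.85 and 9.61 in uninduced replicates 2 and 3). Chaperones of mitochondria had a median of -0.01 over 10 tested genes, and unfolded protein response genes of the endoplasmic reticulum had 0.06 over 14.

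HSF1 binds repeats of the unit NGAAN, and TTCNNGAA is an inverted pair of such units, which reads the same on both strands. It occurred in 9 of 18 heat shock genes with a promoter window (50%) and in 2583 of 27305 genes (9.46%). The tested genes with these letters had a median of 0.16 (8 genes, 5 above 0) and those without them 0.42 (6 genes, all 6 above 0). HSPA8 and CHORDC1, a HSP90 cochaperone, held several matches and are shown with these in capitals.
HSPA8: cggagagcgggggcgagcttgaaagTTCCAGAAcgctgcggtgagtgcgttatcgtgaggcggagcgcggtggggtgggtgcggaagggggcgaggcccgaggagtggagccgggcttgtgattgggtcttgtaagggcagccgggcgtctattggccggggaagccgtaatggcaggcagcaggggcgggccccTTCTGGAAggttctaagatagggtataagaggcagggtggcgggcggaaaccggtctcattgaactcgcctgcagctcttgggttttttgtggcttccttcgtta
CHORDC1: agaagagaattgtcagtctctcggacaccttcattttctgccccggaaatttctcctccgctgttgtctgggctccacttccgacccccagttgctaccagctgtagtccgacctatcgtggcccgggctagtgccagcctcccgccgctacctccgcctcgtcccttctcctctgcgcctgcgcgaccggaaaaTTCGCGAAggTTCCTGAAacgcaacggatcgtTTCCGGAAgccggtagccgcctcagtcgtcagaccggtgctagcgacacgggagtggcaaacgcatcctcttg
The HSPA8 window is chr11:123062087-123062386 on the minus strand and that of CHORDC1 is chr11:90223000-90223299, also on the minus strand. CHORDC1, with 3 matches, gave 0.17 ± 0.25, whereas HSPA1B had no match in its window.

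INSIG1 holds the SREBP escort protein in the endoplasmic reticulum and is itself an SREBP target. At its brightest probe it read 10.31, 10.24 and 10.45 in induced cells, against 9.06, 9.74 and 10.07 in uninduced cells (log2 fold change 0.71 ± 0.22). A dimmer probe read 7.05, 6.78 and 7.20 in induced cells, against 6.18, 6.13 and 6.31 in uninduced cells (0.80 ± 0.15), with a gap of 0.48 that exceeded the range in either group. On the dimmer probe 2 of the 3 uninduced arrays were detected, and leaving out uninduced replicate 1 gave 0.82 there but 0.42 at the brightest probe.

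SREBP targets gave a median of 0.18 over 30 tested genes, 21 of them above 0, with 6 (20%) whose induced arrays were all above and 3 (10%) all below the uninduced ones, against 4.65% and 5.04% of all genes. This list holds INSIG1 and FASN, which the study tabled on these same arrays, so its direction is not independent of that choice. In cholesterol synthesis, HMGCS1, which commits acetyl-CoA to the pathway, gave 0.47 ± 0.17 and HSD17B7 0.49 ± 0.14. HSD17B7 read 10.00, 10.06 and 10.20 in induced cells, against 9.48, 9.59 and 9.74 in uninduced cells. EBP, TM7SF2 and PMVK of the same pathway were those with all induced arrays below, at -0.33, -0.16 and -0.22. In fatty acid synthesis, FASN, the fatty acid synthase, read 12.58, 12.63 and 12.45 in induced cells, against 11.27, 12.08 and 12.26 in uninduced cells (0.68 ± 0.23). Its uninduced replicate 1 stood lowest, and without it the value was 0.38. The sterol element letters TCACNCCAC occurred in 1 of 29 SREBP targets with a window (3.45%) and in 379 of 27305 genes (1.39%).

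**Figure D3:**
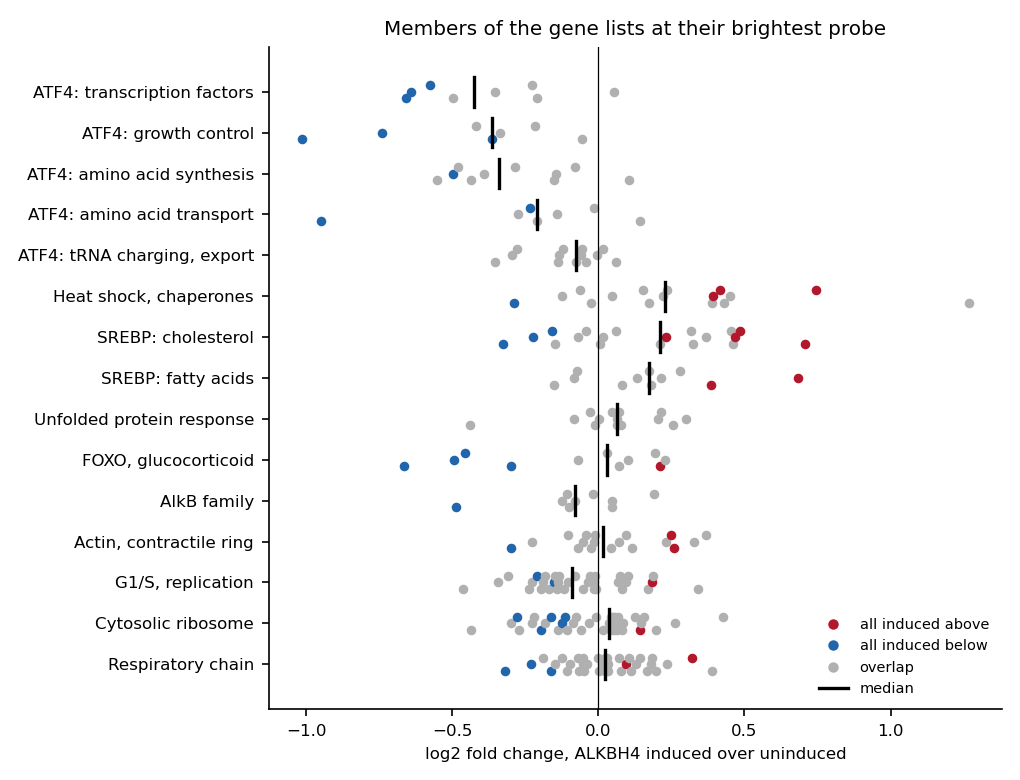
Log2 fold change of ALKBH4 induced over uninduced cells for the tested members of 15 gene lists, 1 point per gene at its brightest probe, with the list median as a black bar. Red and blue points are genes whose induced arrays lay all above or all below the uninduced ones, and grey points overlapped. The 5 groups of ATF4 targets have medians from -0.43 to -0.08 (0.08 over all 45 targets with median scaling), and heat shock genes and both groups of SREBP targets have medians of 0.23, 0.21 and 0.17.

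Averaged over the genes of a list, the groups lay narrowly apart for ATF4 and SREBP targets and overlapped for heat shock genes. Mean deviations of the 45 ATF4 targets from each gene's mean over the 6 arrays were -0.15, -0.12 and -0.15 in induced cells, against 0.44, 0.07 and -0.10 in uninduced cells (log2). Uninduced replicate 1 stood highest and uninduced replicate 3 lay next to the induced arrays. Heat shock genes stood at 0.17, 0.03 and 0.21 in induced cells, against -0.25, -0.21 and 0.04 in uninduced cells, so that uninduced replicate 3 reached the level of induced replicate 2. SREBP targets stood at 0.05, 0.10 and 0.10 in induced cells, against -0.19, -0.09 and 0.03 in uninduced cells.

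Without uninduced replicate 1, ATF4 targets had a median log2 fold change of -0.16, heat shock genes one of 0.21 and SREBP targets one of 0.02. Without induced replicate 2 the SREBP median was 0.09. Without uninduced replicate 3 the medians of ATF4 targets, heat shock genes and SREBP targets were -0.34, 0.35 and 0.22. With arrays scaled to a common median instead of quantile normalized, the median over all probes moved to 0.30, and the ATF4 median was 0.08, which is 0.22 below that shift. Why the uninduced arrays differed from each other was not tested.

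**Figure D4:**
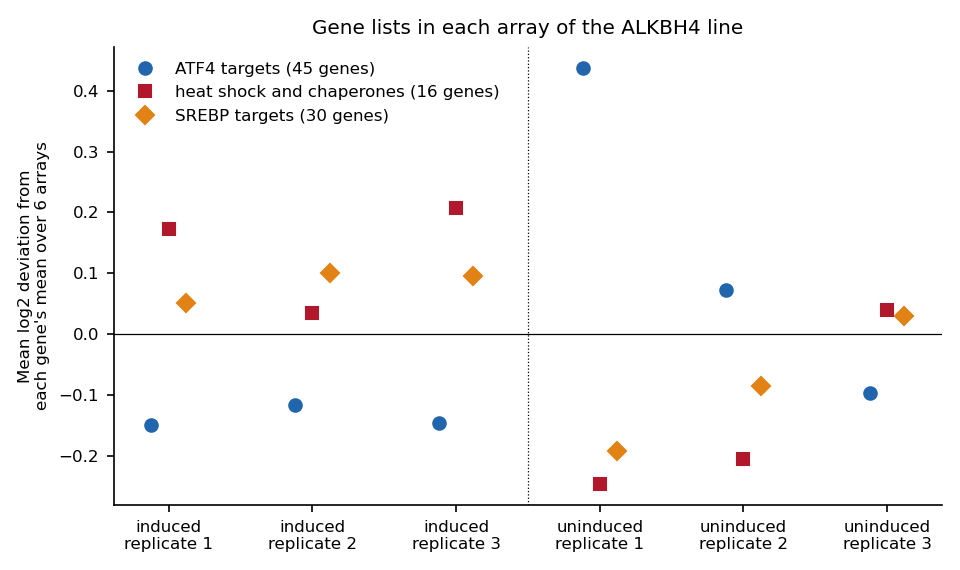
Mean log2 deviation of ATF4 targets, heat shock genes and SREBP targets from each gene's mean over the 6 arrays (vertical axis), by array (horizontal axis, induced left of uninduced). Uninduced replicate 1 is the most extreme array in each list (0.44, -0.25 and -0.19), and uninduced replicate 3 (-0.10, 0.04 and 0.03) lies within or next to the induced values.

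Among brighter probes whose groups did not overlap, some of the highest log2 fold changes rested largely on 1 uninduced array. LAMA5, a laminin chain of basement membranes, read 10.38, 10.69 and 10.24 in induced cells, against 8.66, 10.08 and 10.13 in uninduced cells. Only uninduced replicate 1 was far from the rest, and the log2 fold change of 0.81 ± 0.33 was 0.33 without it. INTS1 of the Integrator complex, SEC16A of vesicle exit sites and the ion channel PIEZO1 also had uninduced replicate 1 lowest. So did the factor CUX1 and the spermidine synthase SRM. Across these genes the log2 fold changes were 0.67 to 0.77, and 0.29 to 0.47 without that array. CUX1 kept the highest value, 0.47, although a second CUX1 probe gave -0.28. In the 12 highest such genes the uninduced array farthest from the induced mean was replicate 1 in 10, and in the 12 lowest it was replicate 1 in 8. POLR2A, the large subunit of RNA polymerase II and a housekeeping gene, read 10.97, 10.79 and 10.81 in induced cells, against 9.25, 10.87 and 10.67 in uninduced cells, and its log2 fold change was 0.60 with and 0.09 without uninduced replicate 1.

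A smaller set of genes had groups that lay farther apart than their own ranges. In 21 of 9588 genes (0.219%) the induced arrays lay above, and in 26 (0.271%) below, the uninduced ones by a gap wider than the range within either group, a description that was chosen after the values were seen. LRRFIP1, a nucleic acid sensor, read 8.25, 8.28 and 8.26 in induced cells, against 7.74, 7.86 and 7.67 in uninduced cells (log2 fold change 0.50 ± 0.13). LGALS1, which encodes galectin-1, read 7.89, 7.94 and 7.81 in induced cells, against 8.31, 8.41 and 8.34 in uninduced cells (-0.48 ± 0.13). METTL21A, a lysine methyltransferase of HSP70 proteins, read 9.34, 9.31 and 9.63 in induced cells, against 8.89, 8.84 and 8.62 in uninduced cells (0.65 ± 0.15), although its other probe gave 0.01. COA8, a mitochondrial assembly factor, gave 0.57 ± 0.14. None of these passed limma, whose adjusted p was 0.924 for each of the 4.

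Genes with FOXO or glucocorticoid control gave a median of 0.03 over 11 tested genes, but 4 of the 11 (36.4%, against 5.04%) had all induced arrays below and 1, FKBP5 (0.21), had all above (9.09%, against 4.65%). The 4 were TSC22D3, known as GILZ, CDKN1B, the cyclin-dependent kinase inhibitor p27, TXNIP, which binds thioredoxin, and the factor KLF9. The study tabled TSC22D3 on these same arrays, so this count is not independent of that choice. TSC22D3 at the probe called by rank product read 8.98, 8.31 and 8.49 in induced cells, against 10.01, 9.09 and 9.42 in uninduced cells (-0.91 ± 0.24), and at its 3 probes the log2 fold change ranged from -0.91 to -0.14. CDKN1B gave -0.67 ± 0.19 and -0.02 at its other probe. ISG15, an interferon-induced ubiquitin-like modifier, read 6.85, 7.32 and 6.32 in induced cells, against 7.48, 7.56 and 7.56 in uninduced cells (-0.70 ± 0.22), and STMND1 gave -0.73 ± 0.17.

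The yeast two-hybrid partners of ALKBH4 named by the study had a median of 0.13 over 6 tested genes (-0.03 without uninduced replicate 1 or 2). None had groups apart, where 4.65% of all genes had induced arrays all above and 5.04% all below. The actin and contractile ring genes had a median of 0.01 over 18, with 9 above and 9 below 0. Of the actin list PFN1 (0.26) and CFL1 (0.25) had all induced arrays above (11.1%, against 4.65% of all genes) and TPM1 (-0.30) had all below (5.56%, against 5.04%). Genes of G1/S and DNA replication lay below 0 in 25 of 34, with a median of -0.09, and CDT1, the licensing factor, gave -0.46 ± 0.17 with overlapping groups. Medians were -0.03 for G2/M genes, -0.15 for p53 targets, 0.07 for hypoxia genes, 0.02 for the respiratory chain and 0.03 for cytosolic ribosomal proteins. The 8 tested histone genes of S phase had a median of -0.16, and H2BC5 (-0.51) and H4C14 (-0.48) had all induced arrays below (25%, against 5.04% of all genes).

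The study tabled 10 genes as higher and 12 as lower after induction, which it chose on these arrays, so their direction is no independent evidence. Of the 8 tested among the 10, all 8 lay above 0 and 7 had groups apart (87.5%, against 4.65% of all genes), with HSPA1B the exception. Of the 11 tested among the 12, all 11 lay below 0 and 9 had groups apart (81.8%, against 5.04%). The study states that no gene changed by more than 2-fold, whereas HSPA1B and DDIT4 did so here. Rank product at the thresholds of the study called 8 of the 14386 probes that passed the detection filter, fewer than the genes it tabled. The methods of the study state no such filter, and without it rank product called 25 probes here. Why these values depart from those of the study was not tested. MCM7, a replicative helicase subunit, gave -0.01 at its brightest probe and -0.67 at the lowest of its 3 probes. Over all 2176 genes with several tested probes, the log2 fold changes of the 2 brightest probes correlated at r = 0.25 across genes, which are not independent replicates. Where the brighter probe had groups apart, the second had groups apart in the same direction in 32 of 227 genes (14.1%) and in the opposite direction in 5, while 4.65% of all genes had the induced arrays all above and 5.04% all below.

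The response of the ALKBH7 line served to ask which values differ from those of another induced line. The difference between both responses, fitted by limma over all 12 arrays normalized together, passed an adjusted p of 0.05 at 11 of 15444 probes (0.0712%), 2 with a higher and 9 with a lower response in the ALKBH4 line. The ALKBH7 probe, which reads that transgene, led with a response of 0.05 for ALKBH4 induction and 3.72 for ALKBH7 induction. DDIT4 gave -1.02 for ALKBH4 induction and -0.22 for ALKBH7 induction, a difference of -0.76 ± 0.23 that did not pass (limma adjusted p = 0.139). SLC3A2 gave -0.95 for ALKBH4 induction and -0.92 for ALKBH7 induction, with a difference of 0.01 ± 0.45 (limma adjusted p = 0.990), and the difference of HSPA1B was -0.09 ± 0.47. These differences come from the 12 arrays together, so they depart slightly from the subtraction of the single values, of which those of the ALKBH4 line rest on its 6 arrays. Among the ATF4 targets, median responses were -0.43 for ALKBH4 induction and -0.88 for ALKBH7 induction in transcription factors, -0.37 for ALKBH4 and -0.23 for ALKBH7 in growth control, and -0.34 for ALKBH4 and -0.30 for ALKBH7 in amino acid synthesis. They were -0.21 for ALKBH4 and -0.02 for ALKBH7 in transport and -0.08 for ALKBH4 and -0.14 for ALKBH7 in tRNA charging, and heat shock genes had 0.23 for ALKBH4 and 0.16 for ALKBH7. These differences between medians were not tested. Both inductions used doxycycline, and what the drug alone does was not measured.

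**Figure D5:**
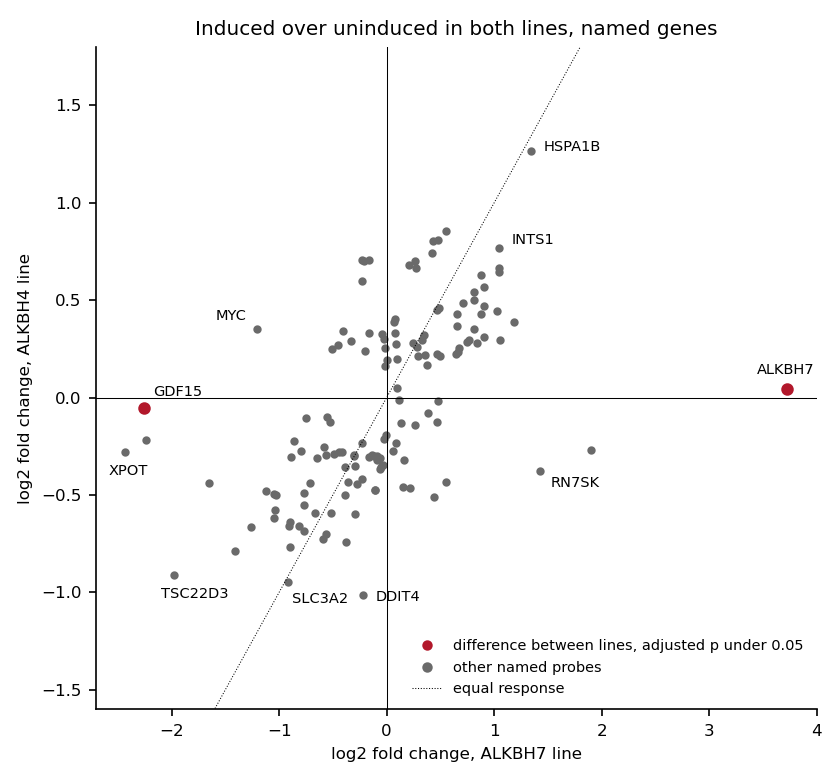
Log2 fold change of induced over uninduced cells in the ALKBH4 line (vertical axis) against the ALKBH7 line (horizontal axis) for the 142 named probes, with scales that differ between the axes. Red points, ALKBH7 and GDF15, are the named probes whose difference between the lines passed an adjusted p of 0.05, and the dotted line marks equal responses. SLC3A2 (-0.95 and -0.92) lies near the dotted line, whereas DDIT4 (-1.02 and -0.22) lies off it.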

How the data were processed

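RNA of induced and uninduced cells of 2 HEK293 lines was measured on 12 arrays, and the 6 of the ALKBH4 line were analysed. With GenomeStudio 2011.1 the authors exported unnormalized bead intensity, deposited in arbitrary units together with a detection p-value per probe. The authors also deposited intensities that they quantile normalized in J-Express Pro 2.7, which were used as an alternative. Groups followed the sample titles, and 0 columns lacked a sample. The number of arrays, 3 per group, limits the precision.

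In R 4.3.3, limma 3.58.1 (lmFit, eBayes, Benjamini-Hochberg adjustment at 0.05) was fitted to log2 quantile-normalized intensities of probes with detection p below 0.01 in at least 3 of 6 arrays, with no background correction. Rank product used 9 pairs of arrays, 100 permutations within arrays and seed 7. The tests were checked on simulated data with noise drawn independently for each probe and array. Differences shared by many probes of an array were not simulated. The annotation gave 27578 probes 1 symbol, 13 several and 21212 none, updated through RefSeq, and a gene was read at its brightest tested probe unless stated. The files name no genome build, so no gene coordinates are given beside the RefSeq promoter windows. Figures were drawn in matplotlib 3.10.9.

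Named genes were the AlkB family, among brighter probes without overlap the 12 with the highest and the 12 with the lowest log2 fold change, the 6 highest and 6 lowest moderated t, genes tabled by the study, up to 4 members per list, the extremes of the difference between lines and every called probe. Other members are named for their groups or gaps, chosen after their values were seen. The members and lists were chosen with earlier results of these data known. Alternatives changed the scaling, background, filter, offset, spread, array weights, probe rule and thresholds, and left out each array.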

Additional observations from a re-analysis of the deposited data

Results flagged for a closer look

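The responses of the ALKBH4 and ALKBH7 lines differed at 11 probes by limma's interaction test. The first was ALKBH7, with a difference of -3.68 ± 0.24 on the log2 scale (adjusted p = 1.02e-05), higher after induction in every array of its own line. GDF15, a stress hormone, gave -0.06 for ALKBH4 induction and -2.25 for ALKBH7 induction, a difference of 2.21 ± 0.36 (limma adjusted p = 0.046). Its level in the ALKBH4 line was near the detection limit, with 2 of 3 induced and 2 of 3 uninduced arrays detected. RN7SK, the RNA that restrains the elongation factor P-TEFb, was lower in every induced array of the ALKBH4 line (8.78, 8.43 and 8.65 in induced cells, against 8.86, 9.05 and 9.08 in uninduced cells) and higher in every induced array of the ALKBH7 line, with a difference of -1.79 ± 0.38 that did not pass (limma adjusted p = 0.0658).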

How the results depend on the processing

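Each group held only 3 arrays, and some values depended on uninduced replicate 1 while others did not. Without that array the log2 fold change of POLR2A moved from 0.60 to 0.09, whereas that of EIF4EBP1 stayed at -0.37. Under median scaling, however, EIF4EBP1 gave -0.03. The smallest limma adjusted p was 0.924 with all arrays and 0.926 without uninduced replicate 1. It was 0.784 without uninduced replicate 2 and 0.505 without uninduced replicate 3. Limma called 0 probes under all but 1 alternative, where the smallest adjusted p lay between 0.119 and 0.999 and 359 to 2178 probes had an unadjusted p under 0.05. With median scaling, which moved the median of all probes to 0.30, it called 1, HSPA1B (adjusted p = 0.0362). Rank product called 8 probes, but 3 with median scaling, 5 with cyclic loess, 25 without the detection filter, and 1 to 14 when an array was left out, 1 without uninduced replicate 1 and 14 without uninduced replicate 3. Groups did not overlap at 1437 probes, at 4806 without the filter, and at 2531 to 3502 with 1 array fewer, where fewer arrays make separation easier. The difference between the lines held at 11 probes, at 1 with median scaling, 75 without the filter, 4 with detection in all 12 arrays, 381 at an adjusted p of 0.1, 1 at 0.01 and 6430 with array weights, and at 1 to 3339 with an array left out, the most without ALKBH7 uninduced replicate 1. The causes were not tested. With the replicate number as a block, limma called 0 probes in the ALKBH4 line, with 800 at an unadjusted p under 0.05, and 11 for the difference. Deviations of arrays with the same number correlated at -0.13, 0.26 and 0.10, so the numbers were not taken to pair the samples.

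Of 142 named values, 88 kept their sign under every alternative run. Median scaling reversed 5 whose groups were apart, with SLC7A1 at 0.13, TRAP1 at 0.015, KLF9 at 0.066, TPM1 at 0.078 and RN7SK at 0.0048, each below the shift of all probes. The median of ATF4 targets lay between -0.34 and 0.08, that of heat shock genes between 0.15 and 0.56, and that of SREBP targets between 0.02 and 0.54, the upper ends with median scaling.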

Other observations

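Some genes that no list covers also had groups of the ALKBH4 line farther apart than the range within either group. ARRDC4, an arrestin-domain relative of TXNIP that also responds to glucose, read 8.34, 8.34 and 8.11 in induced cells, against 8.88, 8.71 and 8.77 in uninduced cells (log2 fold change -0.52 ± 0.14). EIF4E2, a cap-binding protein that represses translation, read 8.87, 8.91 and 8.93 in induced cells, against 9.15, 9.34 and 9.34 in uninduced cells, and it gave -0.37 for ALKBH4 induction and 0.65 for ALKBH7 induction, a difference of -1.01 with a limma adjusted p of 0.0768. SYF2, a splicing factor, gave -0.44 ± 0.14 and IDH1, which makes 2-oxoglutarate in the cytosol, gave 0.31 ± 0.13. These genes were chosen after their values were seen, and 0 of them passed limma.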
